A study of Mus musculus with 12 samples.

Results

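The genes described here are odorant receptor genes of mouse chromosome 11 with the numbers Olfr311 to Olfr332 and Olfr376 to Olfr412, measured by a probe set that carries no other gene's symbol. Of 58 numbers in these ranges after the rule had left out 1 gene, 36 met this condition, 16 in the first range and 20 in the second. Of the other numbers, 13 belong to pseudogene symbols, 6 are measured by shared probe sets alone and 3 are not in the gene reference used. The 36 members are listed as protein-coding on chromosome 11, and they stand among 1015 odorant receptors and 19938 genes measured. The rule chose them by gene number and not by a measured value, but it was set with earlier results of these data known.

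RNA was measured on 12 Affymetrix Mouse Gene 1.0 ST arrays in cells that had been dissociated from the olfactory mucosa and sorted. The mice were S100a5-tauGFP animals, whose GFP labels cells that use S100a5; this gene encodes a calcium-binding protein and is read more in active olfactory neurons. The 18 mice, of both sexes and 7 to 12 weeks old, all spent 40 hours in clean air chambers at 3.1 L per minute, and from 26 hours on received 10 s pulses every 20 min of filtered air (vehicle) or of the citrus accord, a perfumer's blend given as 5% in the series title (odor). Pools of 3 mice were sorted into GFP+ and GFP- cells, which gave 4 groups of 3 arrays: vehicle GFP+, vehicle GFP-, odor GFP+ and odor GFP-. All groups carry the same reporter, no group lacks it, and the labels do not say whether it leaves S100a5 intact. The pools carry the title numbers 1, 2 and 4 (vehicle) and 2, 3 and 4 (odor), and the GFP+ and GFP- arrays of a pool share their animals.

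Odorant receptors are G-protein-coupled receptors in the cilia of olfactory sensory neurons, and a mature neuron transcribes a single receptor gene, from a single allele. Class II receptors are the larger of the mammalian receptor classes, and their genes lie in clusters on many chromosomes, where neighbours are often recent duplicates. A receptor that binds its odorant acts through the G protein subunit Gnal, adenylyl cyclase Adcy3 and a cyclic nucleotide-gated channel, so the RNA of a receptor in a sorted fraction reads how many neurons chose that receptor and how much of its RNA each one holds. In these pooled cells fewer neurons of a kind and less RNA per neuron cannot be told apart.

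Values are the deposited log2 values. The median over all genes of an array lay between 7.46 and 7.65 and the lower quartile between 6.25 and 6.41. Arrays of a group correlated with r of 0.986 to 0.996 and arrays of different fractions with r of 0.883 to 0.938. Omp, the marker of mature olfactory neurons, was higher in GFP+ cells by 0.31 (SE 0.08) in vehicle mice and by 0.33 (SE 0.08) in odor mice, with adjusted p of 0.00549 and 0.00412 by limma. S100a5 itself differed by 0.19 (SE 0.10, adjusted p = 0.123) in vehicle mice and was higher by 0.31 (SE 0.10, adjusted p = 0.0166) in odor mice, on a probe set that lies near the lower quartile. Kirrel2, an adhesion gene that rises with neuronal activity, was higher by 1.25 (SE 0.14) and 1.35 (SE 0.14), with adjusted p of 2.21e-05 and 1.02e-05. Kirrel3, also planned as a check, was higher as well, by 0.43 (SE 0.13) and 0.33 (SE 0.13). Its adjusted p was 0.0125 and 0.0441 by limma. Of the 4 activity genes listed, S100a5 and Kirrel2 included, 2 were higher and 1 lower with vehicle and 3 higher and 1 lower with odor; the lower one was Rasgrp4 (-0.79 and -0.70, adjusted p of 0.000417 and 0.00091). All 9 leukocyte markers, Cd74 and Lyz2 among them, were lower in GFP+ cells in both treatments: their summed level was 10.9 to 11.6 in GFP+ arrays and 15.0 to 15.5 in GFP- arrays.

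The first question was whose RNA, among these receptors, is enriched in reporter-positive cells. GFP+ cells of vehicle mice had higher values than GFP- cells for 12 of the 36 members and lower values for 10, at an adjusted p under 0.05 over all genes by limma, and 14 members missed that threshold. Over all genes 29.9% were called higher and 18.2% lower. With odor, 12 members were higher and 11 lower while 13 missed the threshold, against 33.5% and 18.7% of all genes. Counting instead the members whose 3 GFP+ and 3 GFP- arrays did not overlap gave 12 higher and 12 lower with vehicle (35.3% and 22.0% of all genes) and 12 higher and 11 lower with odor (40.4% and 20.4%). The members' median difference was 0.14 in vehicle and 0.08 in odor mice, where that of all genes was 0.06 and 0.13. The members' medians were small against their moves with the processing: cyclic loess scaling gave 0.08 and -0.01, array weights 0.05 with vehicle, and a second quantile scaling 0.05 with odor. Leaving out vehicle GFP- array 4 or GFP+ array 4 gave 0.07 and 0.08, and leaving out odor GFP- array 2, GFP+ array 3 or GFP- array 4 gave 0.15, 0.13 and 0.03. Their differences ran from -2.81 for Olfr392 to 3.42 for Olfr323 in vehicle mice.

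The other odorant receptors had another balance. Of 979 other receptors 598 (61.1%) were higher and 103 (10.5%) lower in GFP+ cells of vehicle mice, with a median difference of 0.80, and 567 (57.9%) were higher and 115 (11.7%) lower in odor mice, with a median of 0.67. Among the 47 receptors Olfr763 to Olfr827, 29 were higher and 11 lower in vehicle mice (median 1.06), and among the 106 receptors Olfr828 to Olfr986, 67 were higher and 10 lower (median 0.88). These counts describe the lists. Genes of a list are not replicates, and the difference between the lists was not tested.

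**Figure D1:**
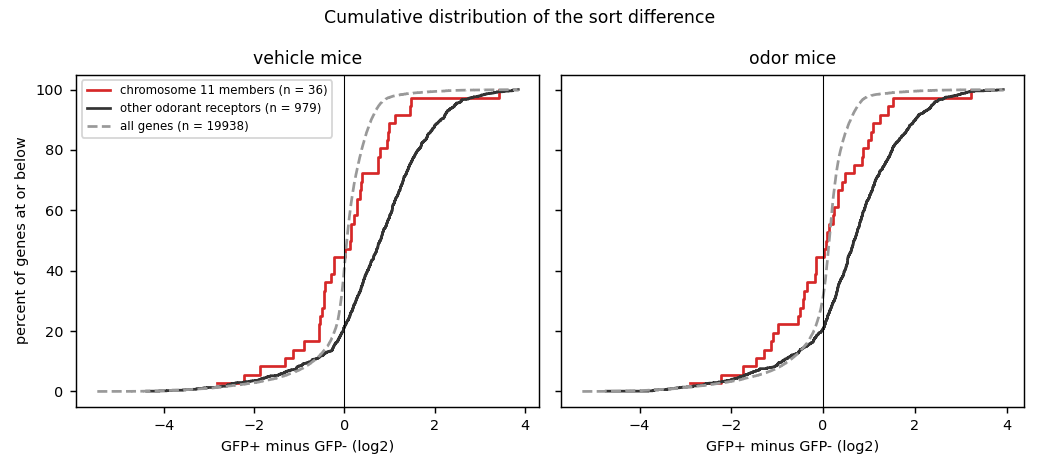
Cumulative percent of genes (y axis) at or below each log2 difference of GFP+ minus GFP- cells (x axis), in vehicle and in odor mice, for the 36 members, the 979 other odorant receptors and all 19938 genes. The members' curve crosses 50% at 0.14 in vehicle mice and at 0.08 in odor mice (-0.01 with cyclic loess scaling), and that of the other receptors at 0.80 and 0.67.

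On single arrays the median over members lay the other way from the median of their differences. The median member read 6.96 to 7.10 on the 6 GFP+ arrays and 7.15 to 7.64 on the 6 GFP- arrays, whereas the median other receptor read 7.52 to 7.76 on GFP+ and 6.60 to 7.21 on GFP- arrays. Setting the median of all receptors to the same value on each array takes a shift of 0.83 with vehicle and 0.70 with odor from every receptor. The members' median difference was only 0.14 and 0.08. A lower call after centring thus means lower relative to the median receptor, and not a fall on the deposited scale. The members' calls were then 2 higher and 26 lower with vehicle, and 4 higher and 23 lower with odor. Under the same centring 276 of the 979 other receptors were higher and 331 lower with vehicle, and 281 higher and 301 lower with odor. The higher and lower counts above therefore hold for the deposited scale. Relative to the median receptor, Olfr323 (2.59) and Olfr319 (0.64) stayed higher in vehicle mice, and Olfr323 (2.52), Olfr319 (0.83), Olfr398 (0.72) and Olfr316 (0.54) in odor mice.

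**Figure D2:**
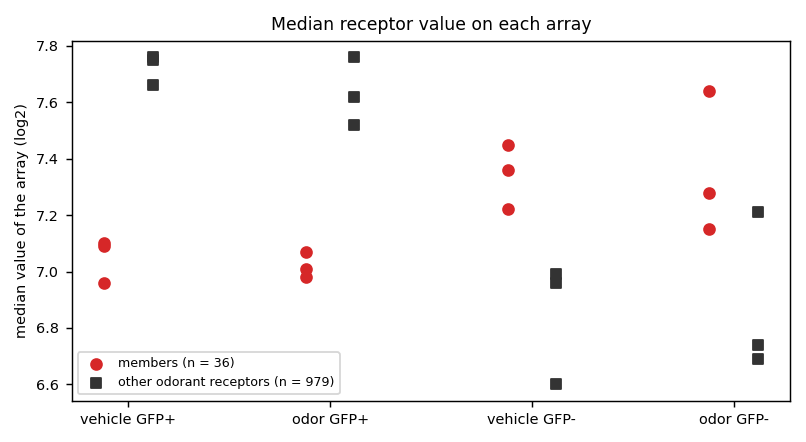
Median log2 value of the 36 members and of the 979 other odorant receptors on each of the 12 arrays, by group, 1 point per array. The members' medians on GFP- arrays, 7.15 to 7.64, lie above those on GFP+ arrays, 6.96 to 7.10, and the medians of the other receptors lie the other way round.

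The calls were alike in the treatments for most members: 11 members were higher in both, 9 were lower in both and 11 passed in neither. The remaining 5 passed in 1 treatment: Olfr378 higher and Olfr311 lower in vehicle mice, and Olfr401 higher and Olfr381 and Olfr328 lower in odor mice. No member passed in opposite directions.

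**Figure D3:**
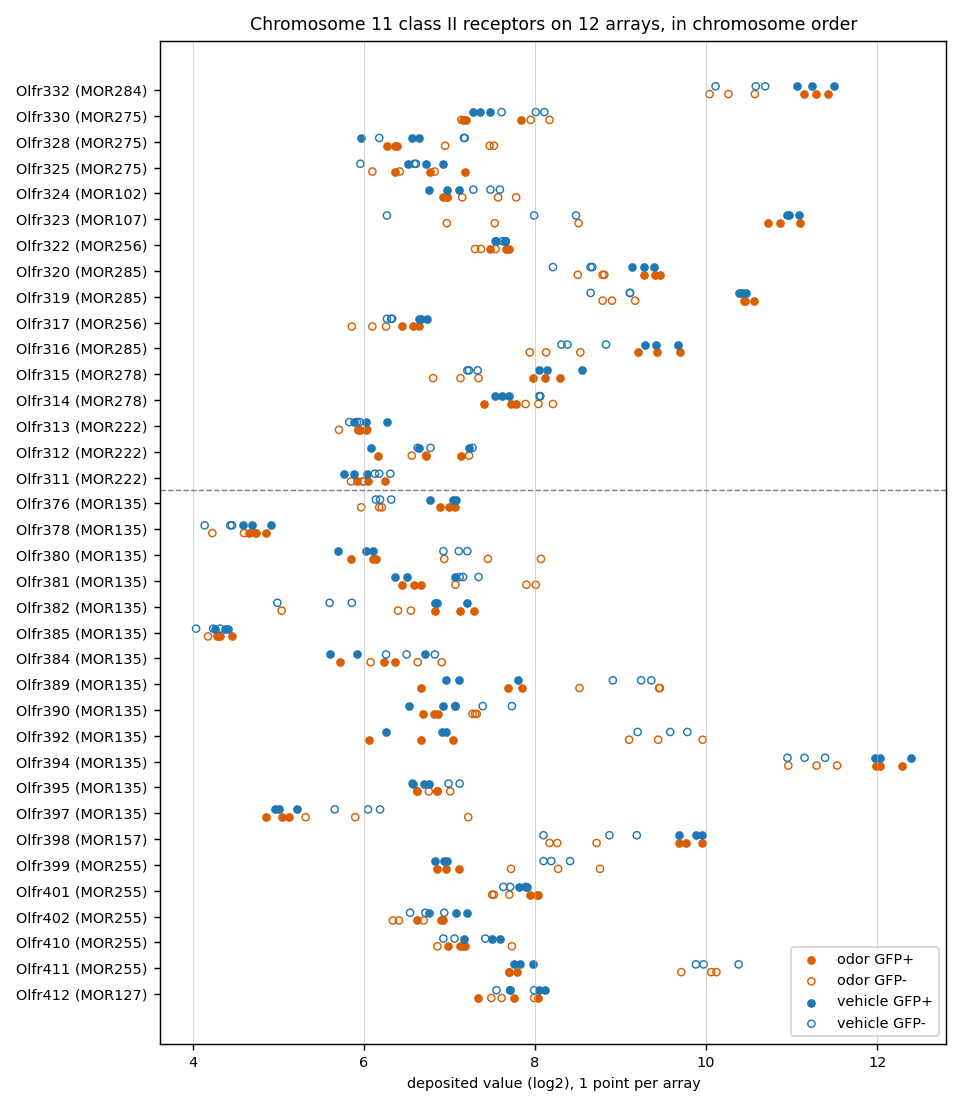
Deposited log2 value (x axis) of each member (y axis, in chromosome order, with its receptor subfamily) on the 12 arrays, filled circles for GFP+ and open circles for GFP- cells, blue for vehicle and orange for odor mice. The dashed line parts Olfr311 to Olfr332 from Olfr376 to Olfr412. Filled and open points stand apart for Olfr323 (filled above 10.7, open below 8.6) and for Olfr392 (filled below 7.1, open above 9.0), and levels of different genes come from different probes and are not compared.

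Olfr323, the only member of its subfamily MOR107 here, had the largest difference. Its GFP+ values were 11.08, 10.97 and 10.94 in vehicle pools 1, 2 and 4, and 11.10, 10.72 and 10.86 in odor pools 2, 3 and 4. Its GFP- values were 8.48, 7.99 and 6.27 in the vehicle pools and 8.51, 7.53 and 6.97 in the odor pools. The GFP+ arrays were close to one another, the GFP- arrays were spread over more than 2 log2 units, and the fractions did not overlap. The difference was 3.42 (SE 0.47), or 10.7-fold, in vehicle mice and 3.23 (SE 0.47), or 9.36-fold, in odor mice, with adjusted p of 8.78e-05 and 0.000128 by limma. Within pools it ran from 2.60 to 4.67 in vehicle and from 2.58 to 3.89 in odor mice, the largest in pool 4 of each treatment. Among the GFP- arrays of each treatment, that of pool 4 also had the lowest Omp, 13.04 (vehicle) and 13.05 (odor). It had the lowest median of the other receptors as well, 6.60 and 6.69. The part of this in the difference was not tested.

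All 3 members of the subfamily MOR285 were called higher in both treatments. Olfr319 read 10.42, 10.38 and 10.46 in GFP+ and 9.11, 9.11 and 8.65 in GFP- cells of the vehicle pools. In odor pools it read 10.45, 10.56 and 10.44 against 9.17, 8.90 and 8.79. Its fractions stood well apart in both treatments, by 1.46 (SE 0.12, adjusted p = 1.46e-06) and 1.53 (SE 0.12, adjusted p = 8.48e-07) by limma. Olfr316 was higher by 0.95 (SE 0.18, adjusted p = 0.000835) and 1.24 (SE 0.18, adjusted p = 0.000121). Olfr320 was higher by 0.75 (SE 0.13, adjusted p = 0.000431) and 0.68 (SE 0.13, adjusted p = 0.000879), but it stood at -0.07 and -0.03 with receptors centred. Under that centring Olfr316 was at 0.12 (adjusted p = 0.625) with vehicle and at 0.54 (adjusted p = 0.0219) with odor. A further probe set shared by Olfr318, Olfr319, Olfr316 and Olfr320 was higher by 1.25 (SE 0.16, adjusted p = 5.71e-05) and 1.21 (SE 0.16, adjusted p = 6.89e-05). These genes are close relatives, and RNA that binds probes of more than 1 of them would enter more than 1 value.

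Olfr398, the MOR157 member, was higher by 1.12 (SE 0.23, adjusted p = 0.00132) in vehicle and 1.42 (SE 0.23, adjusted p = 0.000242) in odor mice by limma. Its GFP+ values lay between 9.68 and 9.95 in vehicle and between 9.68 and 9.95 in odor mice, and its GFP- values between 8.10 and 9.19 and between 8.17 and 8.72. The fractions did not overlap in either treatment. Olfr332, the MOR284 member, was higher by 0.80 (SE 0.17, adjusted p = 0.00173) and 0.99 (SE 0.17, adjusted p = 0.000393). In vehicle mice that direction turned to -0.03 (adjusted p = 0.884) with the receptors so centred. Other called members whose sign turned under that centring were Olfr317, Olfr320, Olfr376 and Olfr378 with vehicle and Olfr317, Olfr320 and Olfr401 with odor. Of these, Olfr317 (-0.45) and Olfr378 (-0.44) passed as lower with vehicle under that centring. Of members not called before it, Olfr313, Olfr322, Olfr325, Olfr385, Olfr401, Olfr402, Olfr410 and Olfr412 turned from above to below 0 with vehicle and then passed as lower. With odor Olfr311, Olfr313, Olfr322, Olfr378, Olfr385, Olfr402 and Olfr412 did so, and Olfr325 turned to -0.38 without passing.

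MOR135, with 13 members the largest subfamily here, all in the second range, held receptors of both directions on the deposited scale. Vehicle mice had 4 of them higher in GFP+ cells and 5 lower, odor mice 3 higher and 6 lower, and 4 missed the threshold in each treatment. The higher ones were Olfr382, Olfr394, Olfr376 and, in vehicle mice, Olfr378. With receptors centred none of these passed as higher by limma in either treatment. Olfr382 then stood at 0.66 (adjusted p = 0.0712) and 0.38, Olfr394 at 0.14 and 0.14, and Olfr376 at -0.08 and 0.16. Olfr378 passed as lower, at -0.44 and -0.47. The lower ones were Olfr392, Olfr389, Olfr380, Olfr397, Olfr390 and, in odor mice, Olfr381. Olfr384, Olfr385 and Olfr395 passed in neither, although in vehicle mice Olfr384 was lower without GFP+ array 4 (-0.76, adjusted p = 0.0294) and Olfr395 without GFP- array 4 (-0.38, adjusted p = 0.0118). Array weights also made Olfr395 pass in vehicle mice (-0.37, adjusted p = 0.00501 by limma). With receptors centred Olfr384 (-1.28 and -1.14), Olfr385 (-0.68 and -0.61) and Olfr395 (-1.05 and -0.88) passed as lower in both treatments.

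The largest differences toward GFP- cells in this subfamily were those of Olfr392 and Olfr389. Olfr392 read 6.91, 6.26 and 6.96 in GFP+ and 9.78, 9.20 and 9.58 in GFP- cells of the vehicle pools. In the odor pools it read 6.67, 6.06 and 7.04 in GFP+ and 9.96, 9.44 and 9.10 in GFP- cells. Every GFP- array thus lay more than 2 log2 units above every GFP+ array for this receptor. Its difference was -2.81 (SE 0.28), 7.03-fold lower, in vehicle and -2.91 (SE 0.28), 7.51-fold lower, in odor mice, with adjusted p of 5.18e-06 and 3.37e-06 by limma. Olfr389 read 6.96, 7.11 and 7.80 in GFP+ and 9.36, 9.24 and 8.91 in GFP- cells of vehicle mice, and 6.67, 7.68 and 7.85 against 9.45, 8.52 and 9.46 in odor mice. Its groups did not overlap, with differences of -1.88 (SE 0.33, adjusted p = 0.00046) and -1.74 (SE 0.33, adjusted p = 0.000741). The summed leukocyte markers moved the same way between fractions (15.0 to 15.5 against 10.9 to 11.6), as did all 4 measured sustentacular markers (medians -1.77 and -1.79), and their part in these differences was not tested.

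Olfr389 and Olfr392 also share the longest run of identical upstream bases among the members that could be compared. Windows of 250 bases before the annotated start were read from RefSeq's GRCm38.p6 promoters for the 30 members it held, and in 435 pairs the longest run of identical bases was the 57 bases of this pair, which are set in capitals. The windows are chr11:73780590-73780839 for Olfr389 and chr11:73816878-73817127 for Olfr392, both on the minus strand, and are printed 5′ to 3′ because both genes were lower in GFP+ cells in both treatments. They were picked after the values had been seen.
Olfr389: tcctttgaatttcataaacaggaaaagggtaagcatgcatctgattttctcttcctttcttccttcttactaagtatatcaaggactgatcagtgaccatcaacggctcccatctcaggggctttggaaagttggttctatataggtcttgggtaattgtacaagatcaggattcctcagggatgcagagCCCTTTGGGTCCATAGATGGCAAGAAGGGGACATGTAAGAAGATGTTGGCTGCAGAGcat
Olfr392: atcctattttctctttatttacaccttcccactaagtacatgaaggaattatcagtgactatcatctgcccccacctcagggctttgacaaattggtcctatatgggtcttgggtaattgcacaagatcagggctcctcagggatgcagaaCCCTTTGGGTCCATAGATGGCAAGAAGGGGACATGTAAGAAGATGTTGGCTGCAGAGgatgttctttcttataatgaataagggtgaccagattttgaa
The run ends 3 bases before the annotated start in Olfr389 and 42 bases before it in Olfr392. Shared sequence did not go with a shared call in every pair: the next longest runs were 33 bases in Olfr402 and Olfr410, which passed in neither treatment, 31 in Olfr322 and Olfr317, of which Olfr317 alone was higher, and 28 in Olfr319 and Olfr316, both higher.

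The other lower members of MOR135 had smaller differences. Olfr380 read 5.70, 6.11 and 6.03 in GFP+ and 6.93, 7.11 and 7.21 in GFP- cells of vehicle mice, a difference of -1.14 (SE 0.22, adjusted p = 0.000933 by limma). In odor mice the difference was -1.45 (SE 0.22, adjusted p = 0.000157), with no overlap of the fractions in either treatment. Its GFP+ values lie below the lower quartile of their arrays, where the size of a difference is uncertain. Olfr397 was lower by -0.90 (SE 0.35, adjusted p = 0.0468) in vehicle mice and -1.14 (SE 0.35, adjusted p = 0.015) in odor mice. Its vehicle call did not hold with the pool as a block (adjusted p = 0.0504), with cyclic loess scaling (0.0636) or with a trended, robust variance prior (0.0755), and leaving out any 1 of the GFP+ arrays 1, 2 and 4 or the GFP- arrays 1 and 2 of vehicle mice gave adjusted p of 0.069 to 0.133. Its GFP- values in odor mice were 7.22, 5.32 and 5.90, a wide spread, and without odor GFP- array 2 the difference was -0.60 (adjusted p = 0.0145). Olfr397 lay below the lower quartile on 11 of the 12 arrays. Olfr390 was lower by -0.55 (SE 0.16, adjusted p = 0.0104) and -0.50 (SE 0.16, adjusted p = 0.017), and the calls were lost without vehicle GFP+ array 1 (-0.40, adjusted p = 0.0522) and without odor GFP+ array 4 (-0.45, adjusted p = 0.0592). Olfr381 differed by -0.56 (SE 0.22, adjusted p = 0.0568; 0.0132 with the pool as a block) in vehicle mice, where leaving out GFP+ array 4 gave -0.76 (adjusted p = 0.0152). In odor mice it was lower by -1.09 (SE 0.22, adjusted p = 0.00136).

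Of the higher members of MOR135, Olfr394 had 11.97, 12.03 and 12.39 in GFP+ and 11.39, 11.15 and 10.95 in GFP- cells of vehicle mice. In odor mice it had 11.98, 12.03 and 12.29 against 11.53, 11.29 and 10.96. The fractions did not overlap, and the differences were 0.97 (SE 0.16, adjusted p = 0.000341) and 0.84 (SE 0.16, adjusted p = 0.000874) by limma. Within pools it ranged from 0.45 in odor pool 2 to 1.44 in vehicle pool 4. Olfr382 was higher by 1.48 (SE 0.33, adjusted p = 0.00256) and 1.08 (SE 0.33, adjusted p = 0.0161), and without odor GFP+ array 2 the second call was lost (0.98, adjusted p = 0.0552). Without odor GFP- array 4 that difference was 0.61 (adjusted p = 0.0446). Its GFP- values spread from 4.99 to 5.86 in vehicle and from 5.04 to 6.55 in odor mice, and those of vehicle mice lay below the lower quartile of their arrays. Olfr376 was higher by 0.75 (SE 0.10, adjusted p = 6.45e-05) and 0.86 (SE 0.10, adjusted p = 1.88e-05), with GFP- values below the lower quartile of their arrays. Olfr378, also below that quartile on all 12 arrays, was higher by 0.38 (SE 0.14, adjusted p = 0.0328) in vehicle mice, a call lost without vehicle GFP+ array 2 or 4 or GFP- array 2 (adjusted p of 0.0579 to 0.138), and differed by 0.23 (SE 0.14, adjusted p = 0.168) in odor mice. Olfr385 stood below it on all 12 arrays too, at 4.04 to 4.46, and differed by 0.15 and 0.09.

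**Figure D4:**
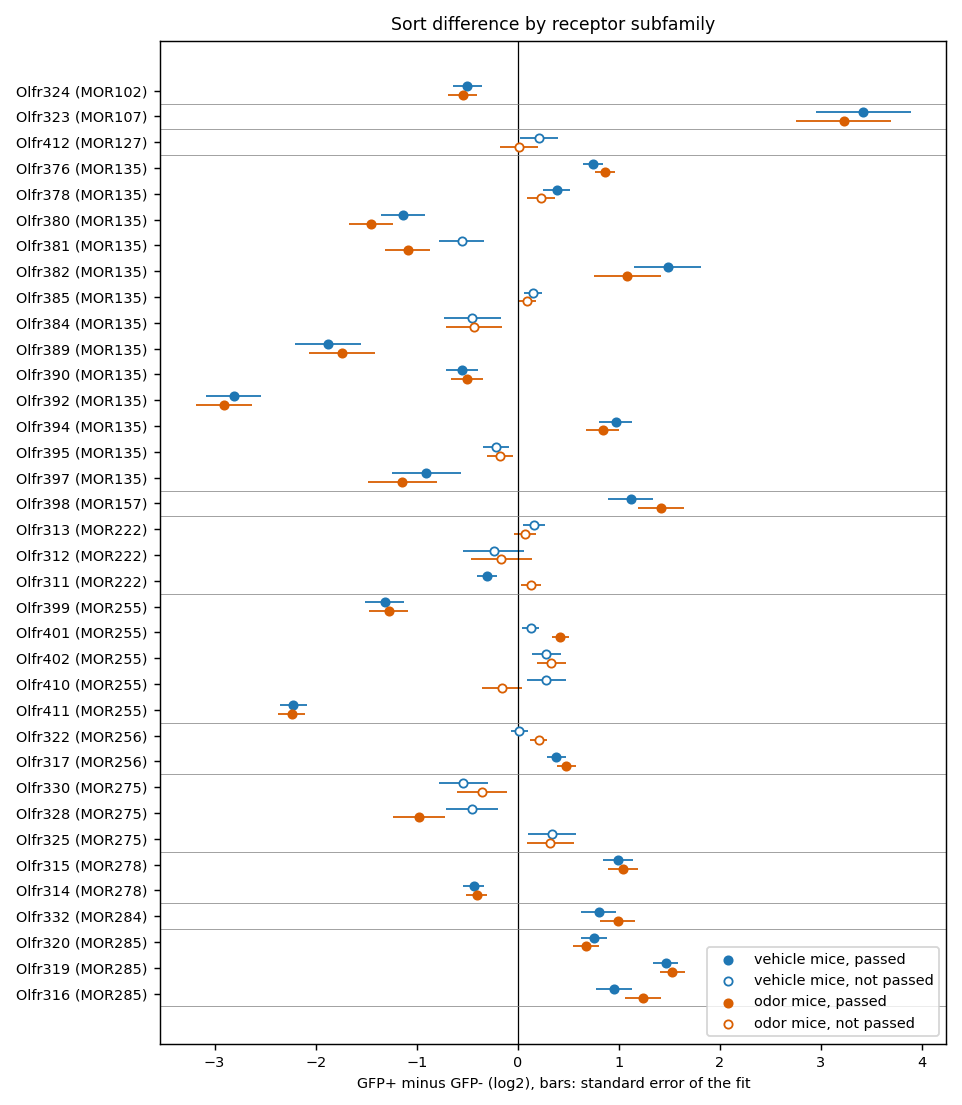
Log2 difference of GFP+ minus GFP- cells (x axis) of each member, grouped by receptor subfamily, in vehicle (blue) and odor mice (orange), with bars of 1 standard error of the fit to 3 arrays a group. Filled points passed at an adjusted p under 0.05 over all genes. The 3 members of MOR285 lie between 0.68 and 1.53 on the deposited scale (Olfr320 at -0.07 and -0.03 with receptors centred). The 13 of MOR135 run from -2.91 to 1.48 on that scale, and none of them passed as higher with receptors centred.

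MOR255 held 2 of the largest differences toward GFP- cells. Olfr411 read 7.76, 7.98 and 7.83 in GFP+ and 9.88, 10.38 and 9.97 in GFP- cells of vehicle mice, and 7.70, 7.70 and 7.79 against 10.06, 9.71 and 10.12 in odor mice. The fractions lay far apart with little spread within them, and the differences were -2.22 (SE 0.13), 4.67-fold lower, and -2.24 (SE 0.13), 4.71-fold lower, with adjusted p of 7.33e-08 and 5.68e-08 by limma. Olfr399 read 6.83, 6.94 and 6.97 against 8.10, 8.19 and 8.41 in vehicle mice and was lower by -1.32 (SE 0.19, adjusted p = 0.000149), and by -1.28 (SE 0.19, adjusted p = 0.000172) in odor mice. The other 3 members of the subfamily were not called lower on the deposited scale. With receptors centred, Olfr401, Olfr402 and Olfr410 passed as lower with vehicle (-0.70, -0.54 and -0.55, adjusted p of 0.00126, 0.00768 and 0.00227), and Olfr402 and Olfr410 with odor (-0.37 and -0.86, adjusted p of 0.049 and 8.78e-05). Olfr401 differed by 0.13 (SE 0.08, adjusted p = 0.25) in vehicle mice and was higher by 0.42 (SE 0.08, adjusted p = 0.00113) in odor mice. Olfr402 differed by 0.28 (SE 0.14, adjusted p = 0.13) and 0.33 (SE 0.14, adjusted p = 0.0714). With the pool as a block Olfr402 passed in odor mice (adjusted p = 0.0347), and it passed without vehicle GFP+ array 4, odor GFP- array 2 or odor GFP+ array 3 (adjusted p of 0.0263 to 0.0448). Olfr410 differed by 0.28 and -0.16.

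In the first range, MOR278 split in direction on the deposited scale. Olfr315 read 8.55, 8.14 and 8.05 in GFP+ and 7.33, 7.21 and 7.23 in GFP- cells of vehicle mice and was higher by 0.99 (SE 0.15, adjusted p = 0.000153) and, in odor mice, by 1.04 (SE 0.15, adjusted p = 0.000102), by limma. Olfr314, of the same subfamily and next to it among the members, read 7.53, 7.70 and 7.62 against 8.05, 8.06 and 8.06 and was lower by -0.44 (SE 0.11, adjusted p = 0.00425) and -0.41 (SE 0.11, adjusted p = 0.00621). Neither pair of groups overlapped. With receptors centred Olfr315 no longer passed, at 0.16 (adjusted p = 0.424) and 0.34 (adjusted p = 0.0799), and Olfr314 stood at -1.26 and -1.11. Olfr324, the MOR102 member, was lower by -0.50 (SE 0.14, adjusted p = 0.011) and -0.54 (SE 0.14, adjusted p = 0.00671), and without vehicle GFP+ array 2 it no longer passed in vehicle mice (-0.41, adjusted p = 0.0533). Olfr317 of MOR256 was higher by 0.38 (SE 0.09, adjusted p = 0.00502) and 0.48 (SE 0.09, adjusted p = 0.00105), with GFP- values below the lower quartile of their arrays. With receptors centred Olfr317 passed as lower with vehicle (-0.45, adjusted p = 0.0126 by limma) and stood at -0.22 (adjusted p = 0.173) with odor. Its relative Olfr322 differed by 0.01 and 0.21, and the second value passed without odor GFP- array 2 or GFP+ array 3 (adjusted p of 0.0183 and 0.0256).

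MOR275 and MOR222 showed few calls on the deposited scale. Of MOR275, Olfr328 differed by -0.46 (SE 0.26, adjusted p = 0.171) in vehicle mice and was lower by -0.98 (SE 0.26, adjusted p = 0.00659) in odor mice. Without vehicle GFP- array 4, which read 6.18 against 7.17 and 7.18, the vehicle difference was -0.79 (adjusted p = 0.00803), and with the pool as a block its adjusted p was 0.0189. Olfr325 differed by 0.34 and 0.32 and passed with the pool as a block (adjusted p = 0.0126 and 0.0154). Olfr330 differed by -0.54 and -0.35. Its vehicle groups did not overlap, and with vehicle it passed as lower with array weights (-0.67, adjusted p = 0.00989) and with the compared groups fitted alone (-0.54, adjusted p = 0.00894). In odor mice it passed without GFP- array 3 (-0.66, adjusted p = 0.0183). A pair of probe sets shared by 6 receptor symbols, 5 of them numbers of the first range, differed by 0.13 and 0.52 in vehicle and by -0.08 and 0.13 in odor mice and did not pass. Of MOR222, Olfr311, below the lower quartile on all 12 arrays, was lower by -0.31 (SE 0.10, adjusted p = 0.0212) in vehicle mice, a call lost without vehicle GFP+ array 1 or 2 or GFP- array 2 (adjusted p of 0.0583 to 0.0959). Olfr312 and Olfr313 passed in neither treatment on that scale, nor did Olfr412, the MOR127 member, which differed by 0.21 and 0.02. With receptors centred, Olfr328 (-1.28 and -1.68) and Olfr330 (-1.37 and -1.06) passed as lower in both treatments. So did Olfr311 (-1.13 and -0.58), Olfr312 (-1.06 and -0.87), Olfr313 (-0.67 and -0.63) and Olfr412 (-0.62 and -0.69). Olfr325 then passed as lower with vehicle alone (-0.49 and -0.38).

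Along the chromosome, members called in opposite directions on the deposited scale lay side by side. In the first range 7 of 16 members were higher and 3 lower in each treatment, with medians of 0.25 and 0.27. In the second range 5 of 20 were higher and 7 lower in vehicle mice (median -0.05), and 5 higher and 8 lower in odor mice (median -0.17). Of the 15 pairs of members next to each other in the first range, 4 passed in the same and 2 in opposite directions in each treatment. Of the 19 pairs in the second range, 3 passed in the same direction and 4 in opposite directions in vehicle mice, and 3 and 5 with odor. With receptors centred only 2 members were higher and 26 lower with vehicle, and 4 and 23 with odor. Pairs were not counted on that scale, nor among other receptors or all genes. Olfr323 (2.59 with vehicle) still lay between Olfr324 (-1.33) and Olfr322 (-0.81), both lower. Beside the members, the probe set shared by Olfr403 and Olfr43 was higher by 1.53 (SE 0.25, adjusted p = 0.000347) and 1.59 (SE 0.25, adjusted p = 0.000256), and that shared by Olfr406 and Olfr59 by 0.96 (SE 0.21, adjusted p = 0.00221) and 0.97 (SE 0.21, adjusted p = 0.00195).

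The comparison the series was built for asks which receptors are more abundant in GFP+ cells when the accord is given. No member passed: limma called 0 of 36, against 0.00502% of all genes. An unadjusted p under 0.05 was met by 0 of the 36 members and by only 259 of the 19938 genes. The differences of odor minus vehicle lay between -0.33 (Olfr410) and 0.17 (Olfr311), and the smallest adjusted p was 1. Olfr410 read 7.17, 7.59 and 7.50 in vehicle and 7.18, 6.98 and 7.12 in odor pools, a difference of -0.33 with a 95% interval of -0.75 to 0.10. Olfr402 differed by -0.20 (-0.52 to 0.11), Olfr311 by 0.17 (-0.04 to 0.39) and Olfr401 by 0.12 (-0.06 to 0.31). Vehicle and odor arrays did not overlap for Olfr401, which was higher with odor, and for Olfr317, which was lower, 2 of 36 members where 7.93% of all genes did not overlap.

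For the receptors with the largest sort differences, the intervals of odor minus vehicle in GFP+ cells were of unequal width. Olfr319 differed by 0.06 (-0.21 to 0.33), Olfr411 by -0.13 (-0.42 to 0.16) and Olfr392 by -0.12 (-0.72 to 0.48). That of Olfr323 was the widest among the members, -0.10 (-1.13 to 0.92). The fit gives a gene 1 spread for all groups, and the SD of Olfr323 was 0.07 and 0.19 in the GFP+ groups compared but 1.16 and 0.78 in the GFP- groups. An adjusted p over the threshold does not show that a receptor stayed the same.

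In GFP- cells no member passed either, against 0% of all genes, and the smallest adjusted p was 0.732. An unadjusted p under 0.05 was met by 3 of the 36 members and by 1301 of the 19938 genes, a like share. Olfr311 read 6.18, 6.31 and 6.13 in vehicle and 5.99, 6.00 and 5.85 in odor pools, a difference of -0.26 (95% interval -0.47 to -0.04). Olfr317 differed by -0.23 (-0.44 to -0.03) and Olfr322 by -0.20 (-0.39 to -0.01). The 2 members whose vehicle and odor arrays did not overlap were Olfr311 and Olfr317, both lower with odor, where 7.44% of all genes did not overlap. The members' differences lay between -0.34 (Olfr398) and 0.51 (Olfr382), and Olfr381 differed by 0.46 (-0.03 to 0.94).

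**Figure D5:**
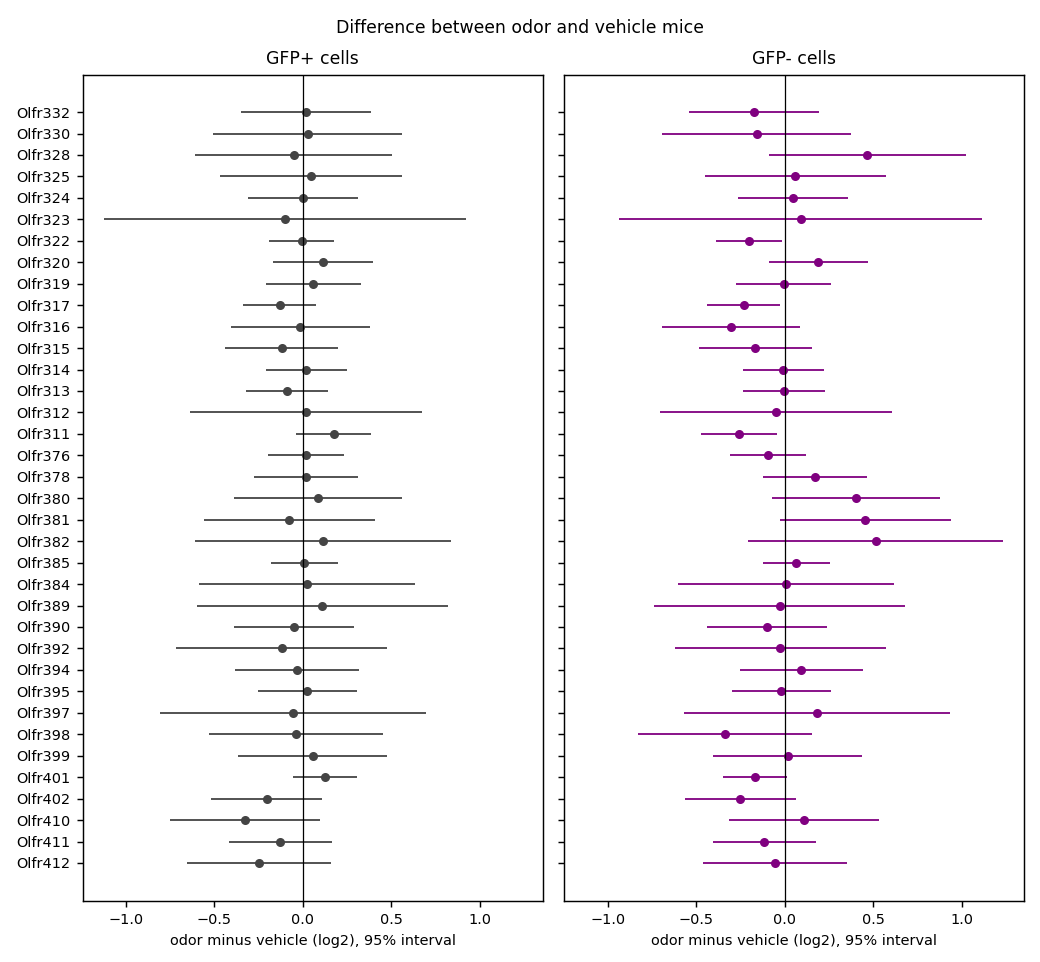
Log2 difference of odor minus vehicle mice (x axis) of each member in GFP+ and in GFP- cells, with the 95% interval of the fit to 3 arrays a group. In GFP+ cells every interval holds 0; in GFP- cells those of Olfr311, Olfr317 and Olfr322 do not, and none of these passed after adjustment over all genes.

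The difference between the sort in odor and in vehicle mice was tested by the interaction. It was called for 0 of 36 members, against 0.00502% of all genes, and 2 members had an unadjusted p under 0.05, as did 843 of the 19938 genes, a like share. These were Olfr311, with 0.43 (95% interval 0.13 to 0.74), and Olfr401, with 0.29 (0.04 to 0.55), both with an adjusted p of 0.971. Olfr311 lay below the lower quartile on all 12 arrays. The interaction was -0.53 (-1.22 to 0.15) for Olfr381, 0.19 (-0.07 to 0.46) for Olfr322, -0.52 (-1.31 to 0.26) for Olfr328 and -0.15 (-0.57 to 0.26) for Olfr378. The 5 members that passed the sort test in 1 treatment are therefore not shown to differ between treatments.

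Upstream windows of the members were searched on both strands for core motifs of homeodomain and O/E factors, which act in receptor gene choice. TAATTA was found in 7 of 30 members (23.3%), in 18.1% of 944 odorant receptor windows and in 4.84% of 32851 windows of all genes. TAATGA was found in 12 of 30 (40%), 25.3% and 8.59%. The O/E core, TCCC and GGGA parted by any 2 bases, was in 0 of 30, 0.424% and 0.779%. The 7 members with TAATTA were Olfr323, Olfr319 and Olfr382, higher in GFP+ cells in both treatments, Olfr378, higher with vehicle, Olfr324, lower in both, and Olfr312 and Olfr402, called in neither. Of the 12 with TAATGA, Olfr323 and Olfr382 were higher in both treatments and Olfr378 with vehicle. Olfr380, Olfr390, Olfr392 and Olfr397 were lower in both and Olfr381 with odor. Olfr312, Olfr325, Olfr384 and Olfr385 were called in neither. All of the 12 but Olfr312, Olfr323 and Olfr325 belong to MOR135, so their windows may not be independent. The annotated models of 7 of all 36 members span at least 2500 bases. Many of the rest span little more than a receptor's coding part (the shortest 921 bases). For these the window may not lie at the start of transcription.

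The genes through which these receptors act were higher in GFP+ cells as a group. Of 18 measured genes of odor transduction and receptor export, none was lower; 15 passed as higher with vehicle (median 0.52) and 17 with odor (median 0.61), among them Adcy3 by 0.56 (SE 0.10) and 0.67 and the channel subunit Cnga2 by 0.46 (SE 0.10) and 0.46. Of 10 genes known from receptor choice, 7 were higher and 1 lower in each treatment. The homeodomain gene Lhx2 was higher by 0.40 (SE 0.10) and 0.55, and Lbr, the lamin B receptor, whose loss in olfactory neurons goes with receptor genes gathering in the nucleus, differed by -1.80 (SE 0.12) and -1.91. Of 12 mature neuron markers 11 were higher and 0 lower in each treatment. Of 7 immature neuron markers 2 were higher and 4 lower, and of 4 progenitor markers 0 were higher and 4 lower in vehicle mice. None of the lists had a gene that passed in the comparisons of odor with vehicle. All 4 respiratory ciliated markers were higher in each treatment. The calls toward GFP- cells numbered 2 of 4 horizontal basal markers, 2 of 3 ensheathing glia markers and the 1 measured erythroid marker in each treatment, and 2 and then 3 of 4 Bowman's gland markers. The part of these cell types in any receptor's difference was not tested.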

How the data were processed

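The deposited log2 values per probe set were used unchanged. The submitters' processing notes name Affymetrix Expression Console as the authors' tool; version, summarization and scaling are not stated there. Array signal gives no count, so the number of arrays, 3 a group, limits the precision.

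Of 35556 probe sets, 21789 carried 1 gene symbol in the platform annotation and gave 19938 genes, each by its probe set of the highest mean. Probe sets with several symbols were fitted apart, over 23410 annotated probe sets. No low values were removed, and 0 columns belonged to other samples. The 4 groups entered a single limma 3.58.1 model (R 4.3.3) with no replicate block, two-sided moderated tests, standard errors (SE) of that fit, and Benjamini-Hochberg adjustment over all genes at 0.05; the code was tested on simulated data. The labels do not say that arrays of a group came from separate experiments, so p-values measure the spread between these pools. Deviations of a pool's GFP+ and GFP- arrays from their group means correlated with r of 0.0732 to 0.252, and that they share animals follows from 18 mice in samples of 3. Same-numbered vehicle and odor pools, by the number in the sample code, correlated with r of 0.185 to 0.309 in GFP+ and of -0.206 to 0.439 in GFP- cells. Subfamilies are the MOR names among RefSeq synonyms; all 36 members matched.

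The rule named, of the members called in each sort, the 8 that were highest and the 8 that were lowest by difference, and elsewhere the 4 of smallest p. Members and marker lists were chosen with earlier results of these data known, and members named beyond the rule were chosen after their values were seen. Alternatives were other scalings, receptor centring, a low-value filter, averaged probe sets, array weights, other variance settings, blocks, and each array left out. Figures used Python 3.11.15 and matplotlib 3.10.9.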

Additional observations from a re-analysis of the deposited data

How the results depend on the processing

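With all receptors centred on their own median on each array, a shift of 0.83 in vehicle and 0.70 in odor mice was taken out, and the members' calls became 2 higher and 26 lower (vehicle) and 4 higher and 23 lower (odor), where of the 979 other receptors 276 were higher and 331 lower, and 281 higher and 301 lower. Olfr332 in vehicle mice then stood at -0.028 instead of 0.80, and the members' median at -0.69 and -0.62; cyclic loess scaling turned that of the odor mice from 0.08 to -0.01. No other alternative moved a count of calls by more than 1.5 times. Leaving out each array in turn gave 11 to 12 members higher and 7 to 12 lower with vehicle, and with odor 11 to 14 higher and 10 to 12 lower. With the pool of 3 mice as a replicate block the counts were 13 and 11 with vehicle and 14 and 11 with odor, with 0 calls in the interaction; beyond the members named in the report it changed no call. The comparisons of odor with vehicle and the interaction gave 0 calls in every fit run, including blocks by title number or by the number in the sample code, and that code block on the compared arrays alone, which was added after the data had been seen; at an unadjusted p under 0.05 the fits gave at most 2 members in GFP+ and 6 in GFP- cells over all settings that kept every array. No label says that these numbers pair vehicle with odor pools; arrays of the same title number correlated with r of -0.171 and 0.268 in GFP+ and of 0.244 and 0.281 in GFP- cells. Cyclic loess scaling moved the median of all genes in the sort of odor mice from 0.13 to 0.02. The filter on low values left 30 members to test. Comparing members by protein identity was not run, for want of protein sequences here. Probes may bind RNA of close relatives, which no alternative tests.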
